A study of Mus musculus with 12 samples.

Results

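The 9 genes described here belong to the FoxO and glucocorticoid response and were followed in denervated mouse calf muscle: Foxo1, Foxo3, Foxo4, Klf15, Nr3c1, Fkbp5, Ddit4, Tsc22d3 and Zbtb16. They were taken by symbol from tables of 25094 genes, and all 9 of the 9 were listed, with the same transcript in the tables of both strains, and passed the filter on low values. The source was poly(A) RNA of the gastrocnemius of C57BL/6 and BALB/c mice, male and wild-type, taken 2 weeks after surgery, in 4 groups of 3 libraries. In the C57BL/6 right leg and the BALB/c right leg the sciatic nerve had been cut and both stumps folded back and stitched to nearby muscle. The C57BL/6 left leg and the BALB/c left leg were called healthy in the labels, whose protocol also mentions a sham operation without saying which legs had it. Age was not given, and neither was whether a right and a left library came from the same animal or whether libraries of a group came from separate animals, so p-values measure the spread between these libraries, which may be technical. The question the comparison answers is how the transcripts of these regulators differ between denervated and intact muscle, and whether that difference is alike in the strains.

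FoxO proteins are forkhead transcription factors. Akt, activated by insulin and IGF-1, phosphorylates them and keeps them out of the nucleus; when that signal weakens they enter it and activate genes of ubiquitin ligases and autophagy, which is why they are studied in muscle wasting. The glucocorticoid receptor, encoded by Nr3c1, is held by heat shock proteins until it binds hormone, then enters the nucleus and switches on genes that include Fkbp5, Ddit4, Tsc22d3, Zbtb16 and Klf15, several of which turn muscle from protein synthesis to breakdown. Both routes are regulated largely at the protein level, which RNA does not show.

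Levels are in RPKM, reads scaled to the length of the listed transcript and to the total reads of the library. Changes are differences of log2(RPKM + 0.5), right minus left, a scale that understates changes of low genes, and a gene was called at a Benjamini-Hochberg adjusted p under 0.05 over all tested genes in limma. The values as deposited carried a general shift: the median of all tested genes changed by 0.52 (log2) in C57BL/6 and by 0.38 in BALB/c, which rescaling by median-of-ratios factors brought to 0.01 in each. For this reason the changes of the 9 genes within each strain are also given relative to the median gene or under that rescaling. Means are given ± SD over the 3 libraries of a group and log2 changes ± SE. Scaling totals were 18132600 to 19282900 reads per library, and within a group each library correlated with the others at a mean r of 0.980 to 0.991 over the tested genes. The fewest reads behind a value were 25 (Foxo3 in BALB/c right library 2) and the most 3054 (Tsc22d3 in BALB/c right library 3). Summed RPKM of 10 muscle fibre markers was 81860 to 85258 in right and 135736 to 148389 in left C57BL/6 libraries, and 64998 to 93189 in right and 101445 to 131909 in left BALB/c libraries, so all 12 libraries were muscle by these genes.

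Among the 9 genes, denervated C57BL/6 muscle had 1 called higher (Foxo1; 63.6% of all tested genes were called higher) and 2 called lower (Foxo4 and Nr3c1; 8.56% of all tested genes). In denervated BALB/c muscle 2 were called higher (Foxo1 and Tsc22d3; 42.5% of all tested genes) and 2 lower (Nr3c1 and Zbtb16; 7.67%). The median change of the 9 was -0.19 in C57BL/6 and -0.07 in BALB/c, beside 0.52 and 0.38 for all tested genes, and 7 of 9 in C57BL/6 and 6 of 9 in BALB/c lay below the median gene. Under median-of-ratios scaling 1 of the 9 was called higher in C57BL/6 (28.2% of all tested genes) and 6 lower (26.6%), and in BALB/c 1 was called higher (21.8%) and 5 lower (19.2%). The limma-voom test of the recovered reads gave the same counts of the 9, beside 28.3% higher and 27.4% lower of all tested genes in C57BL/6 and 21.6% higher and 20.9% lower in BALB/c. Foxo1 was called higher in both strains (40.7% of genes tested in both were called higher in both) and Nr3c1 lower in both (5.2%). A fall in bulk tissue can come from fewer cells of a type or from less RNA per cell, and these cannot be told apart.

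**Figure D1:**
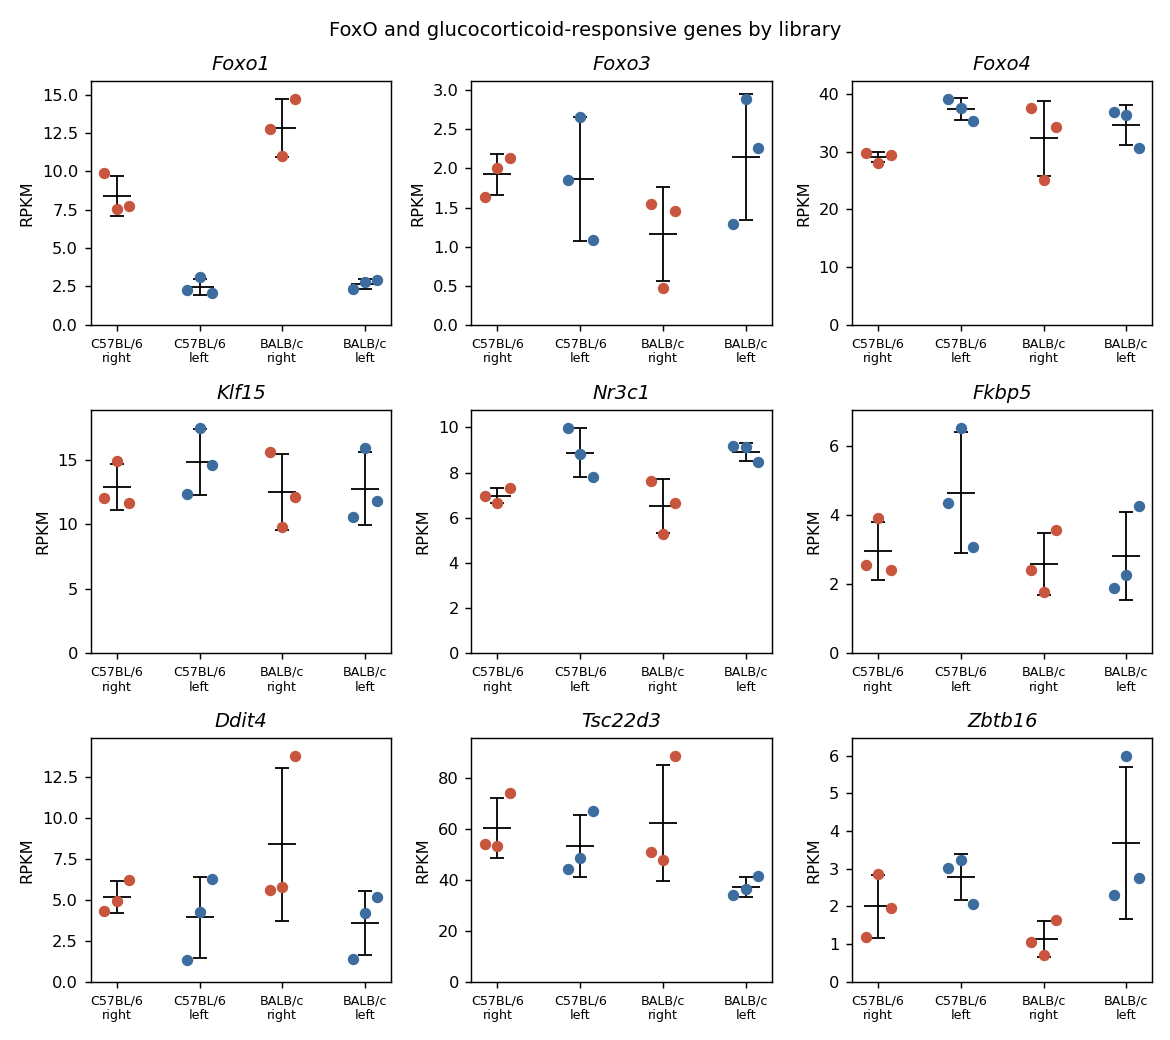
RPKM of the 9 genes in every library (points), with the group mean and SD (bars, n = 3), for right denervated (red) and left (blue) legs of C57BL/6 and BALB/c. Foxo1 in right legs lies between 7.57 and 14.7 RPKM, above all left legs, while for Foxo3, Klf15 and Fkbp5 the legs overlap in both strains.

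Foxo1 (NM_019739, mm9 chr3:52072259-52154031, plus strand), which encodes a FoxO factor known for metabolic genes and muscle wasting, had the largest change of the 9 in both strains as deposited. Under median-of-ratios scaling Fkbp5, Foxo4, Zbtb16 and Nr3c1 changed by more in C57BL/6 (-1.17, -1.07, -1.01 and -0.998) and Zbtb16 in BALB/c (-1.70), all downward. It had 9.90, 7.57 and 7.74 RPKM in right C57BL/6 legs, against 2.25, 3.09 and 2.06 RPKM in left legs. In BALB/c it had 12.8, 11.0 and 14.7 RPKM in right legs, against 2.31, 2.81 and 2.93 RPKM in left legs. The lowest right library thus stood far above the highest left library in each strain. The log2 change was 1.59 ± 0.16 (SE, limma, adjusted p = 7.33e-05) in C57BL/6 and 2.06 ± 0.16 (adjusted p = 6.58e-05) in BALB/c, which is 1.07 and 1.68 relative to the median gene. Of all tested genes, 7.70% in C57BL/6 and 3.06% in BALB/c had a larger change. Under median-of-ratios scaling the change was 0.95 in C57BL/6 (adjusted p = 0.00178) and 1.58 in BALB/c (adjusted p = 0.000115).

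The region before the Foxo1 start is shown because Foxo1 is the gene of the 9 called higher in both strains under both scalings, and FoxO proteins can bind the promoters of forkhead genes; no binding was measured in these samples. The window is the 250 bases upstream of the start (RefSeq, GRCm38.p6, chr3:52268087-52268336, plus strand), written 5′ to 3′, with capitals marking the letters AAACA, the reverse complement of the forkhead core TGTTT, whose first base lies at -196 from the start.
Foxo1 upstream window: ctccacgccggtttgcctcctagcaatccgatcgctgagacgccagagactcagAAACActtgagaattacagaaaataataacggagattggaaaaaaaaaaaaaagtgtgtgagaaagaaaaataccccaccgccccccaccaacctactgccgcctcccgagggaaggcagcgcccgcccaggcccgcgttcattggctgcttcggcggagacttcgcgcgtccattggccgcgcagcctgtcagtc
The longer FoxO element TGTTTAC was on neither strand of this window. It was in 0 of the 8 windows of the 6 genes that had one in the RefSeq table (Foxo1, Foxo3, Klf15, Fkbp5, Ddit4 and Tsc22d3), and in 3.17% of all 32851 windows of the same length, both strands searched. The core TGTTT, searched for after the windows had been read, is part of the longer element and was in 46.4% of all windows.

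Foxo4 (NM_018789, mm9 chrX:98449867-98456212, plus strand), a FoxO factor with the same DNA-binding domain, moved the other way in C57BL/6. It had 29.7, 28.1 and 29.3 RPKM in right C57BL/6 legs, against 39.1, 37.6 and 35.4 RPKM in left legs, with no overlap. BALB/c right legs had 37.6, 25.001 and 34.3 RPKM, against 36.8, 36.3 and 30.6 RPKM in left legs, and these overlapped. The log2 change was -0.36 ± 0.07 in C57BL/6 (limma, adjusted p = 0.00212) and -0.11 ± 0.18 in BALB/c (adjusted p = 0.619). Relative to the median gene these are -0.88 and -0.49. Under median-of-ratios scaling the C57BL/6 change was -1.07 (adjusted p = 1.99e-05), and Foxo4 was then also called lower in BALB/c (-0.63, adjusted p = 0.0173).

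Foxo3 (NM_019740, mm9 chr10:41905592-41996548, minus strand), known in mouse muscle for driving the atrophy ligase Fbxo32 and autophagy genes, was not called in either strain. It had 1.63, 2.01 and 2.14 RPKM in right C57BL/6 legs, against 1.85, 2.67 and 1.09 RPKM in left legs. BALB/c right legs had 1.55, 0.471 and 1.46 RPKM, against 1.29, 2.89 and 2.26 RPKM in left legs. The legs overlapped in both strains, and the spread was wide, with an SD of 0.599 around a mean of 1.16 RPKM in BALB/c right legs. The log2 change was 0.09 ± 0.24 in C57BL/6 (limma, adjusted p = 0.759) and -0.70 ± 0.34 in BALB/c (adjusted p = 0.123). Median-of-ratios scaling gave -0.48 (adjusted p = 0.139) in C57BL/6 and a call in BALB/c (-1.09, adjusted p = 0.0189).

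The make-up of the Foxo1, Foxo3 and Foxo4 transcripts within a library does not depend on how the library was scaled, so it was described for each one. Foxo6, another FoxO gene outside the 9, is not part of these shares and sums. It averaged 8.09 ± 0.842 RPKM in right and 3.78 ± 0.507 RPKM in left C57BL/6 legs, and 8.76 ± 1.65 RPKM in right and 5.97 ± 0.938 RPKM in left BALB/c legs. Foxo1 made up 24.0%, 20.1% and 19.7% of the summed Foxo1, Foxo3 and Foxo4 RPKM in right C57BL/6 legs, against 5.21%, 7.13% and 5.35% in left legs. In BALB/c its share was 24.6%, 30.1% and 29.2% in right legs, against 5.72%, 6.70% and 8.19% in left legs. Every right library had a larger Foxo1 share than every left library. Foxo4 remained the most abundant of the 3 per kilobase, with a mean share of 73.8% ± 1.54 in right and 89.7% ± 2.65 in left C57BL/6 legs, and 69.6% ± 2.40 in right and 87.7% ± 2.99 in left BALB/c legs (SD, n = 3). The ratio of Foxo4 to Foxo1 RPKM averaged 3.50 in right and 15.6 in left C57BL/6 legs, and 2.51 in right and 13.1 in left BALB/c legs. The sum of the 3 genes was 39.4 ± 1.79 RPKM in right and 41.7 ± 2.74 RPKM in left C57BL/6 legs and 46.3 ± 8.52 RPKM in right and 39.4 ± 3.25 RPKM in left BALB/c legs. These shares rest on the listed transcripts, whose lengths are 64.0% (Foxo1), 42.1% (Foxo3) and 99.8% (Foxo4) of that of the longest GENCODE transcript of the gene, so levels between the genes are less firm than changes within one.

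**Figure D2:**
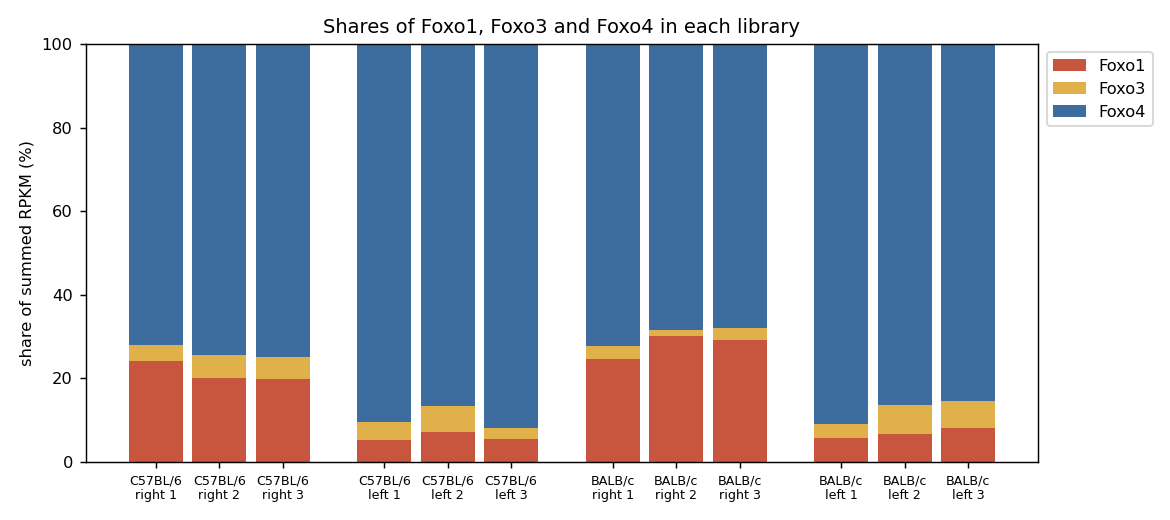
Share of Foxo1, Foxo3 and Foxo4 in their summed RPKM (%) in each of the 12 libraries, right legs left of left legs. The Foxo1 part runs from 19.7% to 30.1% in right legs and from 5.21% to 8.19% in left legs.

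Nr3c1 (NM_001361210, mm9 chr18:39570199-39650567, minus strand), the glucocorticoid receptor, was lower in denervated muscle of both strains. It had 6.94, 6.66 and 7.32 RPKM in right C57BL/6 legs, against 9.99, 8.81 and 7.82 RPKM in left legs. In BALB/c it had 7.63, 5.27 and 6.63 RPKM in right legs, against 9.19, 9.11 and 8.47 RPKM in left legs. No right library reached a left library of its strain. The log2 change was -0.32 ± 0.10 in C57BL/6 (limma, adjusted p = 0.0215) and -0.44 ± 0.16 in BALB/c (adjusted p = 0.0492), and relative to the median gene -0.84 and -0.82. Under median-of-ratios scaling it was -0.998 (adjusted p = 0.000166) and -0.93 (adjusted p = 0.00183). As deposited the calls were close to the threshold: the C57BL/6 call was lost without left library 1, left library 2 or right library 2 (adjusted p = 0.0601, 0.0567 and 0.0658). The BALB/c call was lost without any of the 3 left libraries or without right library 2 or 3 (adjusted p up to 0.123), and under further settings that included common-sum scaling, no filter and eBayes without a trend (adjusted p = 0.0533, 0.0589 and 0.051).

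Fkbp5 (NM_010220, mm9 chr17:28535698-28623094, minus strand) encodes FKBP51, a co-chaperone that lowers the hormone affinity of the receptor and is itself a standard target of it. It had 2.56, 3.93 and 2.42 RPKM in right C57BL/6 legs, against 4.36, 6.55 and 3.07 RPKM in left legs. BALB/c right legs had 2.42, 1.78 and 3.56 RPKM, against 1.90, 2.27 and 4.27 RPKM in left legs. The legs overlapped in both strains and Fkbp5 was not called, with log2 changes of -0.54 ± 0.26 in C57BL/6 (limma, adjusted p = 0.1002) and -0.07 ± 0.31 in BALB/c (adjusted p = 0.857). Under median-of-ratios scaling it was called lower in C57BL/6 (-1.17, adjusted p = 0.00609) and not in BALB/c (-0.51, adjusted p = 0.179).

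Tsc22d3 (NR_122039, a non-coding RefSeq record of the gene, mm9 chrX:137074068-137077207, minus strand) encodes GILZ, a leucine zipper protein that glucocorticoids induce. It had the highest mean RPKM of the 9 in every group, with 54.0, 53.3 and 74.0 RPKM in right C57BL/6 legs, against 44.3, 48.6 and 67.0 RPKM in left legs, which overlapped. In BALB/c it had 51.0, 47.8 and 88.7 RPKM in right legs, against 33.9, 36.4 and 41.7 RPKM in left legs, with no overlap. The change was 0.68 ± 0.24 (log2) in BALB/c (limma, adjusted p = 0.0414), or 0.31 relative to the median gene, and the call was lost under median-of-ratios scaling (0.16, adjusted p = 0.581), common-sum scaling (0.47, adjusted p = 0.209) and no filter (adjusted p = 0.0643). It was also lost without any of the 3 left libraries or without right library 3, where the change was 0.40 (adjusted p = 0.0795). In C57BL/6 the change was 0.19 ± 0.18 as deposited (adjusted p = 0.391) and turned to -0.53 (adjusted p = 0.0471) under median-of-ratios scaling, so Tsc22d3 has no direction there that holds under both scalings.

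A window upstream of Tsc22d3 is shown because it was the one window of these genes with a glucocorticoid half-site. It is 1 of 3 upstream windows of this gene in the RefSeq table (GRCm38.p6, chrX:140600523-140600772, minus strand, written 5′ to 3′), and capitals mark the half-site TGTTCT, whose first base lies at -185 from that start.
Tsc22d3 upstream window: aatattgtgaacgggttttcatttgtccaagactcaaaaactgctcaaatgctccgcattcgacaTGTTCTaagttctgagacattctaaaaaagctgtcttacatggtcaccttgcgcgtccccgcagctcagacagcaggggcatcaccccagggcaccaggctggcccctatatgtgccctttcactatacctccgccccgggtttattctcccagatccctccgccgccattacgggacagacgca
The half-site was in 1 of the 8 windows of the 6 genes and in 16.1% of all 32851 windows, both strands searched. The full element, AGAACA and TGTTCT with any 3 bases between them, which contains the half-site, was in 0 of the 8 and in 0.00913% of all windows. A second Tsc22d3 window held the forkhead core TGTTT, shown in capitals, at -120 from its start (chrX:140548572-140548821, minus strand).
Tsc22d3 second upstream window: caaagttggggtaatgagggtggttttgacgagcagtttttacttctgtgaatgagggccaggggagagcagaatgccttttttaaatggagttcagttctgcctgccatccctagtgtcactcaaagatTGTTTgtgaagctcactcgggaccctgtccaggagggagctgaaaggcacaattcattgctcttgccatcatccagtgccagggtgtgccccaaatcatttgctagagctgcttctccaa
The remaining Tsc22d3 window (chrX:140542669-140542918, minus strand) held neither the half-site nor the forkhead core. Which of these starts belongs to the listed transcript, whose position is given in mm9, was not determined. A match describes letters only, and binding sites far from the start lie outside these windows.

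Ddit4 (NM_029083, mm9 chr10:59412423-59414518, minus strand) encodes REDD1, which restrains the growth kinase complex mTORC1 through the TSC proteins and is induced by glucocorticoids, low oxygen and lack of energy. It had 4.30, 4.95 and 6.23 RPKM in right C57BL/6 legs, against 1.32, 4.25 and 6.26 RPKM in left legs, with overlap. In BALB/c it had 5.61, 5.82 and 13.8 RPKM in right legs, against 1.40, 4.20 and 5.16 RPKM in left legs, without overlap. Of all tested genes, 48.1% had BALB/c right libraries all above the left ones. The log2 change missed the threshold in both strains, at 0.53 ± 0.44 in C57BL/6 (limma, adjusted p = 0.306) and 1.15 ± 0.46 in BALB/c (adjusted p = 0.0711). Under median-of-ratios scaling these were -0.10 (adjusted p = 0.858) and 0.68 (adjusted p = 0.241).

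Ddit4 and Tsc22d3 shared their highest library in every group. Library 3 was the highest of its leg for both genes in all 4 groups. The gene whose values over the 12 libraries, set against the left mean of each strain, were most like theirs was the same for both, Nfkbia, the NF-kappaB inhibitor IkappaB-alpha, itself glucocorticoid-induced (r = 0.94 with Ddit4 and 0.89 with Tsc22d3). Nfkbia had 10.7, 12.9 and 13.1 RPKM in right C57BL/6 legs, against 8.76, 9.81 and 14.8 RPKM in left legs. In BALB/c it had 17.5, 15.4 and 25.7 RPKM in right legs, against 9.77, 15.7 and 15.5 RPKM in left legs. Nfkbia was not called in either strain as deposited. Under median-of-ratios scaling it was called lower in C57BL/6 (-0.53, limma, adjusted p = 0.0442) and not called in BALB/c (adjusted p = 0.975).

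Zbtb16 (NM_001364543, mm9 chr9:48459902-48644330, minus strand) encodes PLZF, a zinc finger repressor whose transcript rises strongly with glucocorticoids in many cell types. It had 1.05, 0.713 and 1.65 RPKM in right BALB/c legs, against 2.30, 5.99 and 2.75 RPKM in left legs, without overlap. Right C57BL/6 legs had 1.195, 2.87 and 1.95 RPKM, against 3.02, 3.23 and 2.08 RPKM in left legs, and these overlapped. The log2 change was -1.29 ± 0.34 in BALB/c (limma, adjusted p = 0.0145), a fold of 0.308 between the means, and 2.24% of tested genes had a lower change. In C57BL/6 it was -0.43 ± 0.26 (adjusted p = 0.174). Under median-of-ratios scaling Zbtb16 was called lower in BALB/c (-1.70, adjusted p = 0.00327) and in C57BL/6 (-1.01, adjusted p = 0.00917). Without BALB/c right library 2, which held its lowest value, the adjusted p was 0.0505. That library was the lowest of its leg for 8 of the 9 genes.

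Klf15 (NM_023184, mm9 chr6:90412570-90425232, plus strand) encodes a Krüppel-like factor that the glucocorticoid receptor induces in muscle and that drives branched-chain amino acid breakdown. It had 12.04, 14.9 and 11.7 RPKM in right C57BL/6 legs, against 12.4, 17.5 and 14.6 RPKM in left legs. BALB/c right legs had 15.6, 9.79 and 12.2 RPKM, against 10.6, 15.95 and 11.8 RPKM in left legs. The legs overlapped in both strains, with log2 changes of -0.19 ± 0.14 in C57BL/6 (limma, adjusted p = 0.265) and -0.03 ± 0.21 in BALB/c (adjusted p = 0.908). Relative to the median gene these are -0.71 and -0.41, and under median-of-ratios scaling Klf15 was called lower in both strains (-0.89, adjusted p = 0.00111, and -0.54, adjusted p = 0.0336).

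**Figure D3:**
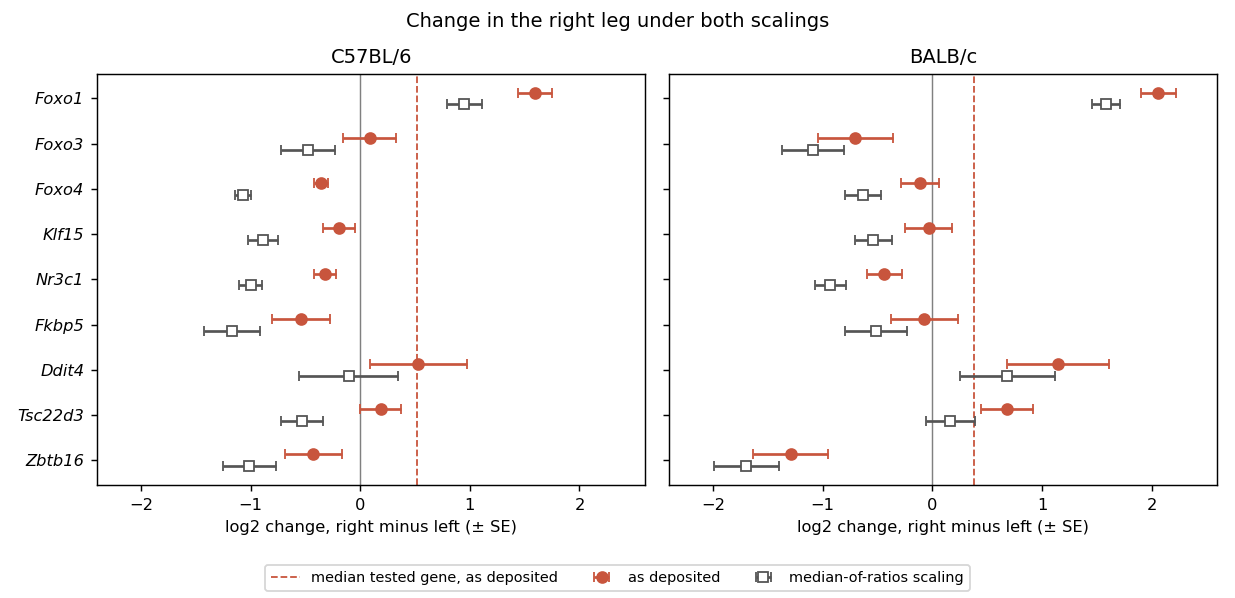
Log2 change (right minus left, ± SE) of each gene in C57BL/6 and BALB/c as deposited (filled circles) and under median-of-ratios scaling (open squares), with the median tested gene as a dashed line at 0.52 and 0.38. Foxo1 lies to the right of the dashed line in both strains, and Nr3c1 lies below 0 under both scalings.

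Against all tested genes, most of the 9 changes lay in the lower part of the distribution, and Foxo1 lay towards its high end. In C57BL/6 7 of the 9 and in BALB/c 6 of the 9 lay below the median gene. The number of genes whose right libraries all lay above the left ones was 1 of 9 in C57BL/6 (Foxo1; 66.2% of all tested genes) and 3 of 9 in BALB/c (Foxo1, Ddit4 and Tsc22d3; 48.1%). Those with all right libraries below the left ones were 2 of 9 in C57BL/6 (Foxo4 and Nr3c1; 9.57% of all tested genes) and 2 of 9 in BALB/c (Nr3c1 and Zbtb16; 10.4%).

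**Figure D4:**
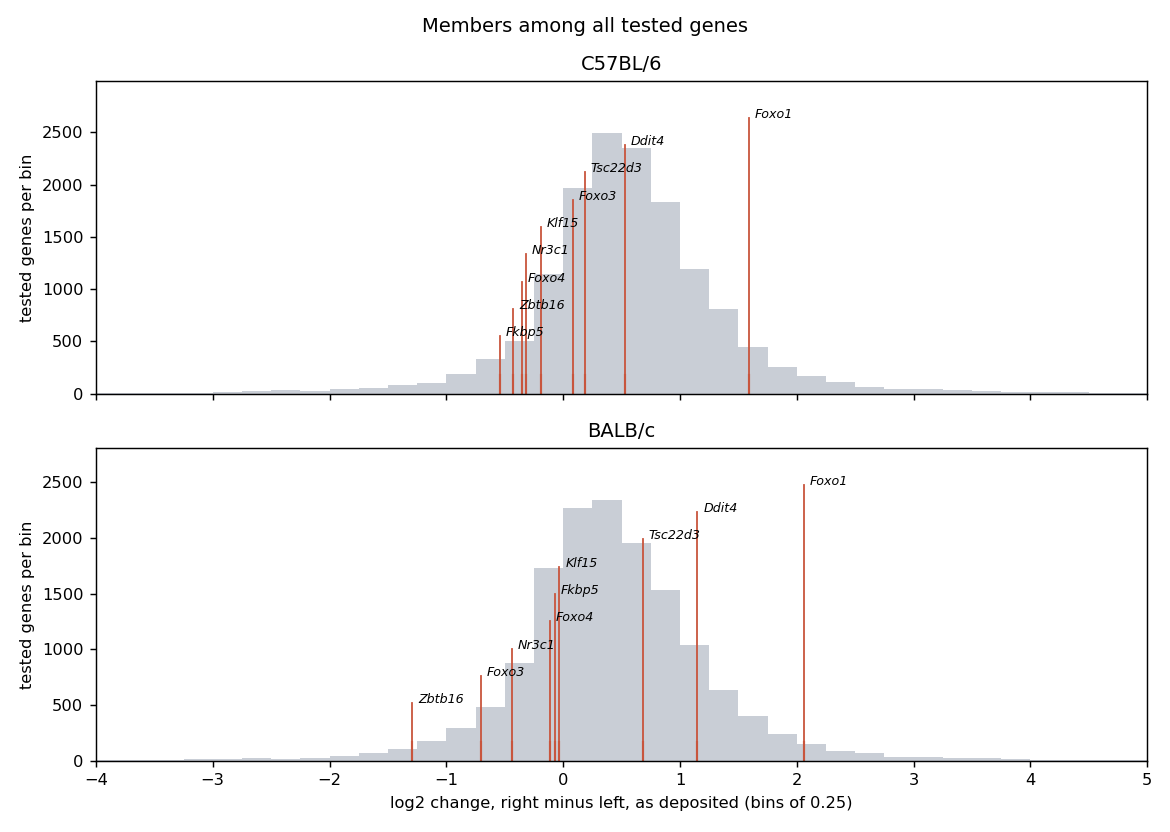
Histogram of the log2 change (right minus left, as deposited) of all tested genes in C57BL/6 (14551 genes) and BALB/c (14819 genes), in bins of 0.25, with the 9 genes marked by red lines. In C57BL/6 7 of the 9 and in BALB/c 6 of the 9 lie below the median gene, and Foxo1 lies far above it at 1.59 in C57BL/6 and 2.06 in BALB/c.

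The difference between the strains (right minus left in BALB/c, less right minus left in C57BL/6, in 1 limma fit over 12 libraries) was called for 0 of the 9 genes, larger or smaller, while 1.76% of all tested genes were called larger in BALB/c and 4.33% smaller. At an unadjusted p under 0.05 there were 0 of the 9 as deposited, 3 under median-of-ratios scaling and 2 with limma-voom. Of all tested genes, 3443 of 14165 reached that p as deposited, 3632 of 14080 under median-of-ratios scaling and 3567 of 14165 with limma-voom. Under median-of-ratios scaling 3.72% of all tested genes were called larger in BALB/c and 3.52% smaller, and 0 of the 9. Foxo1 changed by 2.06 in BALB/c and 1.59 in C57BL/6, a difference of 0.47 with a 95% interval of -0.03 to 0.97 (adjusted p = 0.232). For Zbtb16 the difference was -0.87 (interval -1.90 to 0.17, adjusted p = 0.283) and for Foxo3 -0.79 (interval -1.79 to 0.22, adjusted p = 0.315). Ddit4 had a wide interval of -0.95 to 2.18. Nr3c1 had the narrowest range around 0, with a difference of -0.12 (interval -0.52 to 0.29). Changes of Foxo4 (interval -0.18 to 0.66), Klf15 (-0.44 to 0.76), Fkbp5 (-0.50 to 1.44) and Tsc22d3 (-0.21 to 1.21) were also not told apart between the strains.

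Ordered by level, Foxo1 was highest in BALB/c right legs (12.8 ± 1.86 RPKM), then in C57BL/6 right legs (8.40 ± 1.30 RPKM), BALB/c left legs (2.69 ± 0.328 RPKM) and C57BL/6 left legs (2.47 ± 0.547 RPKM). The first and second of these steps had no overlap, and the left legs of the strains overlapped. Nr3c1 was highest in BALB/c and C57BL/6 left legs (8.92 ± 0.393 and 8.87 ± 1.09 RPKM), which overlapped, and lower in C57BL/6 and BALB/c right legs (6.97 ± 0.333 and 6.51 ± 1.19 RPKM). For Tsc22d3 the C57BL/6 left legs (53.3 ± 12.1 RPKM) lay above the BALB/c left legs (37.3 ± 3.99 RPKM) without overlap. All other neighbours in the order of levels overlapped for the remaining genes. The tables of the strains were normalized separately, so levels across strains are descriptions with no test.

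The genes whose pattern over the 12 libraries was most like that of each of the 9 were sought among the 10217 genes whose mean reached 1 RPKM in each table. For Foxo1 these were Lrrc47 and Prpf40b (r = 0.997 and 0.996), for Foxo4 Zfp91 and Ddi2 (0.962 and 0.956) and for Foxo3 Etl4 and Lrp5 (0.963 and 0.932). Nr3c1 was closest to Usp24 and Clec16a (0.978 and 0.975). Zbtb16 was closest to Hivep1 and to Ppargc1a, the mitochondrial coactivator PGC-1alpha (0.943 and 0.940). Klf15 had Tinagl1 and Lims2 (0.935 and 0.878) and Fkbp5 had Gsk3b and Klf13 (0.839 and 0.835). After Nfkbia, Ddit4 was closest to Camk2n1 (0.895) and Tsc22d3 to Dolpp1 (0.886). These correlations describe the 12 libraries, which share the leg difference and each library's scaling.

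Known FoxO target genes moved in both directions. In the accounts of the lists from here on, a gene was called in the strain whose values are given (limma, adjusted p of at most 0.0416) unless the text says otherwise. Of 32 tested, 20 were called higher and 6 lower in C57BL/6 (62.5% and 18.8%, beside 63.6% and 8.56% of all tested genes), and 14 higher and 5 lower in BALB/c (43.8% and 15.6%, beside 42.5% and 7.67%). Median-of-ratios scaling gave 9 higher and 15 lower in C57BL/6 (28.2% and 26.6% of all tested genes). In BALB/c it gave 10 higher and 11 lower targets (21.8% and 19.2% of all tested genes). Their median change lay at -0.07 relative to the median gene in C57BL/6 and 0.00 in BALB/c. The largest rises were in the growth-arrest genes Cdkn1a and Gadd45a. Cdkn1a, the cell cycle inhibitor p21, averaged 638 ± 123 RPKM in right and 4.52 ± 0.738 RPKM in left C57BL/6 legs, and 567 ± 103 RPKM in right and 10.3 ± 4.02 RPKM in left BALB/c legs. Gadd45a averaged 799 ± 25.9 RPKM in right and 11.4 ± 3.15 RPKM in left C57BL/6 legs, and 773 ± 151 RPKM in right and 6.81 ± 1.81 RPKM in left BALB/c legs.

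Other classical targets fell in the same muscles. Irs2, the insulin receptor substrate that FoxO factors induce on fasting, averaged 1.67 ± 0.380 RPKM in right and 4.47 ± 0.271 RPKM in left C57BL/6 legs, and 1.18 ± 0.364 RPKM in right and 4.99 ± 2.53 RPKM in left BALB/c legs. Txnip, an inhibitor of thioredoxin and glucose uptake, averaged 68.4 ± 18.9 RPKM in right and 170 ± 25.5 RPKM in left C57BL/6 legs, and 77.9 ± 20.6 RPKM in right and 199 ± 40.8 RPKM in left BALB/c legs. The atrophy ligase Fbxo32 (atrogin-1), named here after its values were seen, was not called in C57BL/6, with 30.7 ± 3.82 RPKM in right and 21.8 ± 5.94 RPKM in left legs (limma, adjusted p = 0.0527). In BALB/c it rose, with 42.9 ± 14.2 RPKM in right and 20.1 ± 2.05 RPKM in left legs (adjusted p = 0.0107), and was not called under median-of-ratios scaling (adjusted p = 0.107). Trim63 (MuRF1), likewise named afterwards, averaged 91.6 ± 6.27 RPKM in right and 71.7 ± 1.83 RPKM in left C57BL/6 legs, and 188 ± 42.1 RPKM in right and 74.1 ± 5.70 RPKM in left BALB/c legs. It was called higher in both strains as deposited. Under median-of-ratios scaling its change in C57BL/6 turned from 0.35 to -0.37 and was called lower (limma, adjusted p = 0.00502). In BALB/c Trim63 stayed called higher under that scaling (0.80, adjusted p = 0.0140).

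Among 20 genes listed as regulators of FoxO proteins, 15 were called higher and 1 lower in C57BL/6 (75% and 5%, beside 63.6% and 8.56% of all tested genes), and 12 higher and 1 lower in BALB/c (60% and 5%, beside 42.5% and 7.67%). The list includes Foxo6, itself a FoxO gene and named here after its values were seen. It was called higher in C57BL/6 and BALB/c (limma, adjusted p = 0.000183 and 0.0495). Under median-of-ratios scaling 9 were called higher and 5 lower in C57BL/6 (28.2% and 26.6% of all tested genes), and 6 higher and 2 lower in BALB/c (21.8% and 19.2%). The kinase gene Akt1, whose product keeps FoxO proteins in the cytoplasm, averaged 47.9 ± 4.39 RPKM in right and 15.7 ± 0.983 RPKM in left C57BL/6 legs, and 65.9 ± 16.4 RPKM in right and 23.9 ± 4.94 RPKM in left BALB/c legs. Akt2 averaged 121 ± 32.6 RPKM in right and 27.9 ± 1.73 RPKM in left BALB/c legs. In C57BL/6 it averaged 75.8 ± 8.29 RPKM in right and 31.6 ± 0.881 RPKM in left legs. The AMP-activated kinase subunits moved apart: Prkaa1 averaged 5.75 ± 0.481 RPKM in right and 1.99 ± 0.0551 RPKM in left C57BL/6 legs, while Prkaa2, the main catalytic subunit of muscle fibres and the 1 gene called lower, averaged 6.00 ± 0.177 RPKM in right and 22.6 ± 1.63 RPKM in left legs. In BALB/c Prkaa2 averaged 4.13 ± 0.595 RPKM in right and 14.8 ± 1.26 RPKM in left legs.

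Other glucocorticoid-responsive genes were listed apart from the 9: 22, of which 21 were tested and Hif3a fell below the filter. In C57BL/6 13 were called higher and 2 lower (61.9% and 9.52%, near the 63.6% and 8.56% of all tested genes), and in BALB/c 12 higher and 2 lower (57.1% and 9.52%, beside 42.5% and 7.67%). Their median change lay at 0.35 relative to the median gene in C57BL/6 and 0.58 in BALB/c. Median-of-ratios scaling gave 9 higher and 6 lower in C57BL/6 (28.2% and 26.6% of all tested genes). In BALB/c it gave 10 higher and 5 lower (21.8% and 19.2% of all tested genes). Mt2, a metallothionein, averaged 316 ± 177 RPKM in right and 5.52 ± 0.549 RPKM in left C57BL/6 legs. Cdkn1c, the cell cycle inhibitor p57, averaged 280 ± 63.7 RPKM in right and 15.98 ± 3.91 RPKM in left BALB/c legs. Cdkn1a, also on this list, is given above. Mstn, the muscle growth inhibitor myostatin, was called lower in both strains, with 2.06 ± 0.174 RPKM in right and 26.1 ± 2.45 RPKM in left C57BL/6 legs and 1.40 ± 0.472 RPKM in right and 19.6 ± 7.66 RPKM in left BALB/c legs. Arrdc2 averaged 3.14 ± 0.874 RPKM in right and 19.9 ± 12.8 RPKM in left C57BL/6 legs. In BALB/c Arrdc2 was not called as deposited (-0.36, limma, adjusted p = 0.144) and was called lower under median-of-ratios scaling (-0.81, adjusted p = 0.00772). The phosphatase gene Dusp1 averaged 24.4 ± 1.21 RPKM in right and 43.6 ± 15.3 RPKM in left BALB/c legs (limma, adjusted p = 0.0416). In C57BL/6 Dusp1 was not called as deposited (-0.38, adjusted p = 0.282) and was called lower under median-of-ratios scaling (-1.09, adjusted p = 0.0154).

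The machinery of the glucocorticoid receptor, apart from Nr3c1 and Fkbp5, held 17 tested genes. In C57BL/6 10 were called higher and 0 lower (58.8% higher, beside 63.6% of all tested genes), and in BALB/c 9 higher and 0 lower (52.9%, beside 42.5%). Under median-of-ratios scaling 7 were called higher and 6 lower in C57BL/6 (28.2% and 26.6% of all tested genes). In BALB/c 5 were then called higher and 3 lower (21.8% and 19.2% of all tested genes). The chaperone Hsp90ab1, which holds the receptor ready for hormone, averaged 1104 ± 122 RPKM in right and 342 ± 26.3 RPKM in left C57BL/6 legs, and 1253 ± 164 RPKM in right and 418 ± 1.52 RPKM in left BALB/c legs. Its paralog Hsp90aa1 averaged 10.8 ± 1.69 RPKM in right and 2.47 ± 0.370 RPKM in left C57BL/6 legs. In BALB/c Hsp90aa1 averaged 8.87 ± 0.580 RPKM in right and 3.24 ± 1.34 RPKM in left legs. Reads shared between these 2 similar genes may be split by the counting. Bag1, a co-chaperone, averaged 298 ± 82.4 RPKM in right and 77.1 ± 6.06 RPKM in left BALB/c legs. In C57BL/6 it averaged 274 ± 50.7 RPKM in right and 90.2 ± 4.96 RPKM in left legs.

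Of 12 genes of amino acid breakdown and glucose uptake linked to KLF15, 5 were called higher and 2 lower in C57BL/6 (41.7% and 16.7%, beside 63.6% and 8.56% of all tested genes), and 1 higher and 5 lower in BALB/c (8.33% and 41.7%, beside 42.5% and 7.67%). Under median-of-ratios scaling 9 of the 12 were called lower in each strain (26.6% of all tested genes in C57BL/6 and 19.2% in BALB/c), with 1 higher in C57BL/6 and 0 in BALB/c. Gpt2, the mitochondrial alanine aminotransferase, averaged 8.53 ± 0.482 RPKM in right and 48.6 ± 5.05 RPKM in left C57BL/6 legs, and 5.52 ± 1.35 RPKM in right and 27.1 ± 2.97 RPKM in left BALB/c legs. Slc2a4, the insulin-responsive glucose transporter GLUT4, averaged 72.2 ± 15.3 RPKM in right and 164 ± 7.84 RPKM in left C57BL/6 legs, and 77.4 ± 7.82 RPKM in right and 193 ± 2.97 RPKM in left BALB/c legs. Genes of branched-chain amino acid breakdown did not move as one. Dbt, Bckdhb and Ivd are named here after their values were seen. In C57BL/6 the 5 called higher as deposited were Bcat2, Bckdha, Bckdhb, Acadsb and Ivd, while Dbt, a subunit of the same complex as Bckdha, was not called (-0.11, adjusted p = 0.425). In BALB/c Bcat2 was the 1 called higher and Dbt was called lower, with 2.77 ± 0.397 RPKM in right and 6.61 ± 1.94 RPKM in left legs (-1.09, adjusted p = 0.00389). Bckdha, Acadsb, Bckdhb and Ivd were not called in BALB/c (adjusted p = 0.0548, 0.0619, 0.417 and 0.598). Under median-of-ratios scaling Bcat2 and Bckdhb turned to -0.43 and -0.35 in C57BL/6 (adjusted p = 0.00445 and 0.00649). Dbt was then called lower in both strains (-0.78 in C57BL/6 and -1.55 in BALB/c, limma, adjusted p = 0.00079 and 0.000444). Ivd was then not called in C57BL/6 (-0.28, adjusted p = 0.133). In BALB/c Bckdhb and Ivd were then called lower (-0.64 and -0.62, adjusted p = 0.00445 and 0.0206). Bckdha and Acadsb stayed uncalled in BALB/c under that scaling (adjusted p = 0.974 and 0.313). Bckdha averaged 128 ± 6.38 RPKM in right and 62.4 ± 2.81 RPKM in left C57BL/6 legs and stayed called under median-of-ratios scaling (0.31, adjusted p = 0.00714). Acadsb in C57BL/6 (35.2 ± 2.62 RPKM in right and 22.1 ± 0.489 RPKM in left legs) and Bcat2 in BALB/c (42.7 ± 2.78 RPKM in right and 27.7 ± 0.665 RPKM in left legs) were not called under that scaling (adjusted p = 0.568 and 0.619).

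In the mTORC1 pathway, on which the Ddit4 product acts, 10 of 15 genes were called higher and 1 lower in C57BL/6 (66.7% and 6.67%, near the 63.6% and 8.56% of all tested genes), and 8 higher and 0 lower in BALB/c (53.3% higher, beside 42.5%). Under median-of-ratios scaling 5 were called higher and 6 lower in C57BL/6 (28.2% and 26.6% of all tested genes). In BALB/c 3 were then called higher and 3 lower (21.8% and 19.2% of all tested genes). Mtor, the kinase itself, averaged 14.4 ± 0.357 RPKM in right and 3.61 ± 0.408 RPKM in left C57BL/6 legs. Sesn3, a stress-induced inhibitor of mTORC1, averaged 2.19 ± 0.472 RPKM in right and 0.329 ± 0.109 RPKM in left C57BL/6 legs. In BALB/c it averaged 2.11 ± 0.452 RPKM in right and 0.315 ± 0.129 RPKM in left legs. Ddit4l, the paralog of Ddit4, averaged 52.4 ± 16.2 RPKM in right and 89.9 ± 2.72 RPKM in left C57BL/6 legs. In BALB/c Ddit4l was not called as deposited (-0.77, limma, adjusted p = 0.131) and was called lower under median-of-ratios scaling (-1.29, adjusted p = 0.0439). In BALB/c Eif4ebp1, the translation repressor 4E-BP1, averaged 314 ± 66.5 RPKM in right and 81.7 ± 6.22 RPKM in left legs, and Tsc2, a brake on mTORC1, averaged 47.7 ± 7.15 RPKM in right and 14.2 ± 1.63 RPKM in left legs. Both also rose in C57BL/6. There Eif4ebp1 averaged 164 ± 7.56 RPKM in right and 65.8 ± 2.05 RPKM in left legs. Tsc2 averaged 44.3 ± 9.48 RPKM in right and 15.9 ± 0.790 RPKM in left legs.

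**Figure D5:**
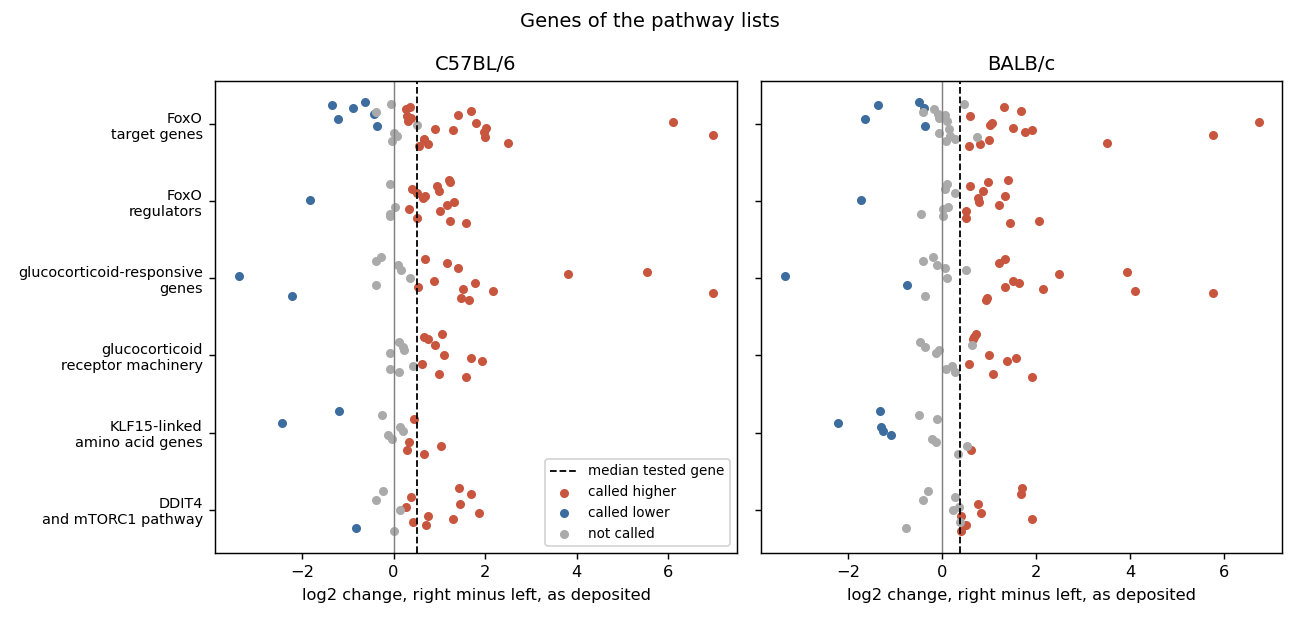
Log2 change (right minus left, as deposited) of every tested gene of the 6 pathway lists in C57BL/6 and BALB/c, called higher (red), called lower (blue) or not called (grey), with the median tested gene as a dashed line. Cdkn1a and Gadd45a lie between 5.76 and 6.98, and Mstn lies at -3.38 in C57BL/6 and -3.35 in BALB/c.

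Some markers of other cells differed between the legs and others did not. As deposited, 63.6% of all tested genes were called higher and 8.56% lower in C57BL/6, and 42.5% and 7.67% in BALB/c. Of 9 macrophage markers 9 were called higher in C57BL/6, with a summed level of 91.6 to 183 RPKM in right and 9.58 to 13.2 RPKM in left legs, and 8 in BALB/c, with 187 to 301 RPKM in right and 62.6 to 106 RPKM in left legs. Of 7 fibroblast and fibro-adipogenic progenitor markers 7 were called higher in C57BL/6 (214 to 405 RPKM in right and 78.7 to 136 RPKM in left legs), and 4 higher and 1 lower in BALB/c (508 to 658 RPKM in right and 441 to 693 RPKM in left legs). Of 10 muscle fibre markers 3 were called higher and 7 lower in C57BL/6, and 1 higher and 2 lower in BALB/c. Of 5 satellite cell markers 3 were called higher in C57BL/6 (6.75 to 9.47 RPKM in right and 3.09 to 3.59 RPKM in left legs) and 1 in BALB/c (8.07 to 13.1 RPKM in right and 4.76 to 7.05 RPKM in left legs). Endothelial markers summed to 35.9 to 46.0 RPKM in right and 39.1 to 45.9 RPKM in left C57BL/6 legs, with 0 of 7 called higher and 2 lower, and to 46.0 to 78.5 RPKM in right and 65.7 to 91.2 RPKM in left BALB/c legs, with 1 of 7 called in each direction. Adipocyte markers were called in neither strain (111 to 185 RPKM in right and 96.2 to 154 RPKM in left C57BL/6 legs, and 282 to 409 RPKM in right and 166 to 495 RPKM in left BALB/c legs). Schwann cell markers ranged from 9.19 to 46.3 RPKM in right and 1.76 to 119 RPKM in left C57BL/6 legs, with 0 of 5 called, and from 17.8 to 36.7 RPKM in right and 26.9 to 112 RPKM in left BALB/c legs, with 1 of 5 called in each direction. T and NK cell markers were low in all libraries but did not overlap between the legs, at 0.413 to 1.06 RPKM in right and 0.040 to 0.086 RPKM in left C57BL/6 legs and 0.425 to 1.50 RPKM in right and 0.087 to 0.243 RPKM in left BALB/c legs, and Klrb1c was at 0 in all 6 BALB/c libraries. The 1 of them tested in C57BL/6, Nkg7, was called higher, and 0 of 2 tested were called in BALB/c. Under median-of-ratios scaling 9 macrophage markers were called higher in C57BL/6 and 6 in BALB/c (28.2% and 21.8% of all tested genes). Fibroblast and progenitor markers then had 4 higher in C57BL/6, and 0 higher and 1 lower in BALB/c. Satellite cell markers had 1 higher in each strain. Endothelial markers had 6 lower in C57BL/6 and 5 in BALB/c (26.6% and 19.2% of all tested genes). The part of these cells in the changes of the 9 genes was not tested.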

How the data were processed

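The authors deposited RPKM values, 1 table per strain; per the file headers, HOMER counted exon reads of both strands with its mm9 annotation, keeping 1 transcript per gene, while the column names say FPKM. The submitters' processing notes list the tools HISAT2, HOMER and DESeq2 and the builds GRCm38 and mm10, with no versions or roles; none of the sources used here gives the alignment build. Gene positions are those the tables list. Because strand was not used, overlapping genes would share reads, and no listed gene overlaps any of the 9. Columns were matched to libraries by the code in each sample's description, and libraries carry the number of their title.

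Whole reads were recovered from RPKM, transcript length and a scaling total, within 0.1 read for 99.67% to 99.80% of values; 14826932 to 17323390 reads per library lay in listed genes. Genes averaging 0.1 RPKM or more in a table were tested on log2(RPKM + 0.5) with limma 3.58.1 in R 4.3.3 (eBayes with a trend, two-sided, Benjamini-Hochberg over all tested genes). The strain difference was 1 contrast over 12 libraries. The test was checked on simulated data without a general shift between the legs, so that check does not cover calls under such a shift. Alternatives tried were a pseudocount of 0.1 or 1, a filter of 1 RPKM or none, median-of-ratios and common-sum (TPM) scaling, limma-voom on the recovered reads, eBayes without a trend, the replicate number as a block, 1 spread for 12 libraries, and each library left out.

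The 9 genes and all lists were chosen with earlier results of these data known. Named list genes are up to 2 called genes per list, strain and direction with the largest change; the most similar patterns are the 2 with the highest Pearson r of log2(RPKM + 0.5) minus the left mean of the table. Upstream windows come from RefSeq (GRCm38.p6); Nr3c1, Foxo4 and Zbtb16 have none here.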

Additional observations from a re-analysis of the deposited data

Results flagged for a closer look

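Of 109 genes on the pathway lists around the 9, 6 differed between the strains in their change, 3 with a larger and 3 with a smaller value in BALB/c, by a test of the difference itself (limma over 12 libraries, right minus left in BALB/c, less the same in C57BL/6, Benjamini-Hochberg adjusted over all tested genes). Of all tested genes, 1.76% were called larger in BALB/c and 4.33% smaller, and the median tested gene differed by -0.14 (log2). Under median-of-ratios scaling 6 of the 109 were called larger in BALB/c and 2 smaller (3.72% and 3.52% of all tested genes). Apart from Cdkn1c and Mtor, the genes below were named after their values were seen.

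Cdkn1c changed by 4.09 (log2) in BALB/c and 2.17 in C57BL/6, a difference of 1.92 (adjusted p = 0.0190). It averaged 280 ± 63.7 RPKM in right and 15.98 ± 3.91 RPKM in left BALB/c legs, and 102 ± 42.3 RPKM in right and 21.5 ± 5.44 RPKM in left C57BL/6 legs (SD, n = 3). Under median-of-ratios scaling the difference was 2.11 (adjusted p = 0.0189).

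Trim63 changed by 1.32 in BALB/c and 0.35 in C57BL/6, a difference of 0.97 (adjusted p = 0.0162), and 1.17 under median-of-ratios scaling (adjusted p = 0.0101). Bbc3, a FoxO target that encodes the cell death protein PUMA, changed by 3.50 in BALB/c and 2.49 in C57BL/6, a difference of 1.01 (adjusted p = 0.0455), and of 1.14 under median-of-ratios scaling (adjusted p = 0.0216).

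Mtor changed by 0.82 in BALB/c and 1.86 in C57BL/6, a difference of -1.04 (adjusted p = 0.0150). It averaged 10.8 ± 1.31 RPKM in right and 5.93 ± 1.24 RPKM in left BALB/c legs, and 14.4 ± 0.357 RPKM in right and 3.61 ± 0.408 RPKM in left C57BL/6 legs. Under median-of-ratios scaling the difference was -0.87 (adjusted p = 0.0128), and the change in BALB/c alone was then not called (0.33, adjusted p = 0.0973).

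Both other genes are on the list linked to KLF15. Dbt changed by -1.09 in BALB/c and -0.11 in C57BL/6, a difference of -0.98 (adjusted p = 0.0484), and of -0.78 under median-of-ratios scaling (adjusted p = 0.0447). Gpt, an alanine aminotransferase, changed by -1.30 in BALB/c and 0.15 in C57BL/6, a difference of -1.45 (adjusted p = 0.0489) that was not called under median-of-ratios scaling (-1.26, adjusted p = 0.0675).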

How the results depend on the processing

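Foxo1 was called higher in both strains in 16 of 16 alternatives, with changes of 0.95 to 1.74 in C57BL/6 and 1.58 to 2.21 in BALB/c, and Foxo4 was called lower in C57BL/6 in 16 of 16. Zbtb16 in BALB/c was called in 15 of 16, Nr3c1 in 13 of 16 in C57BL/6 and 7 of 16 in BALB/c, and Tsc22d3 in BALB/c in 8 of 16. The number of the 9 called higher in BALB/c, 2 as deposited, was 1 under common-sum scaling, median-of-ratios scaling, limma-voom and no filter. The number called lower in BALB/c, 2 as deposited, was 5 under median-of-ratios scaling and limma-voom, and 1 under common-sum scaling, no filter, eBayes without a trend and the replicate block. The number called lower in C57BL/6, 2 as deposited, was 6 under median-of-ratios scaling and limma-voom. Leaving out 1 library gave 1 to 2 called higher and 0 to 2 lower in BALB/c, and 1 higher and 1 to 3 lower in C57BL/6. The strain difference was called for 0 of the 9 throughout. Tsc22d3 in C57BL/6 reversed to -0.53 under median-of-ratios scaling and under limma-voom (adjusted p = 0.0471 and 0.0303). These scalings also moved the calls over all tested genes: in C57BL/6 from 9258 higher and 1246 lower as deposited to 4080 and 3845 under median-of-ratios scaling and 4122 and 3992 with limma-voom (28.3% and 27.4%), and in BALB/c from 6302 and 1136 to 3221 and 2831, and 3194 and 3096 (21.6% and 20.9%). Total RNA per muscle is not part of these files, and the cause of the shift was not tested.

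The replicate numbers were not taken to pair the legs, because the labels do not say whether they do. Same-numbered libraries deviated together at r = 0.117, 0.0597 and 0.0335 in C57BL/6 and 0.0301, 0.0542 and 0.202 in BALB/c. Libraries with different numbers lay at r = -0.104 to 0.0591 in C57BL/6 and -0.163 to 0.0894 in BALB/c. Not every library correlated best with its own number, and these values do not settle whether the legs were paired. With the replicate block Fkbp5 in C57BL/6 (adjusted p = 0.00715) and Ddit4 in BALB/c (0.0144) were called and Nr3c1 in BALB/c was not (0.0761); no other call of the 9 changed. Intervals rest on the spread between libraries.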

Other observations

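The 9 genes did not share one order of libraries. BALB/c right library 2 was the lowest of its leg for 8 of the 9 genes and highest for 0, and it also had the smallest median-of-ratios factor of the right legs (1.10, against 1.26 to 1.32 for the other right libraries). Similarly, BALB/c left library 1 was the lowest of its leg for 7 of the 9. Its factor was 0.766, against 0.913 and 0.843 for the other BALB/c left libraries. C57BL/6 left library 3 was the lowest of its leg for 6 of the 9. Ddit4 was lowest in library 1 of each leg in both strains, at 4.30 and 1.32 RPKM in right and left C57BL/6 legs and 5.61 and 1.40 RPKM in right and left BALB/c legs.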
